A study of Mus musculus with 24 samples.

Results

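Gene expression after joint induction of BRAFV600E and p53R172H was compared between organoids of the mouse colon (COL) and of the small intestine (SI). The comparison rests on the 8 libraries of the BRAFp53 genotype out of the 24 libraries of the series, chosen by genotype label. These were 2 induced (on) and 2 non-induced (off) libraries from each tissue. The genotype label BraffloxV600E/+;Trp53LSL-R172H/+;Villin::CreERT2 was shared by all 8, on a C57BL/6N background, so the off libraries carried the unrecombined alleles and the Cre transgene as well. On libraries had received 4-hydroxytamoxifen (4-HT) for 24 h, at 3.5 µM in COL and 0.5 µM in SI organoids, and off libraries ethanol. RNA was taken on day 3 in COL and on day 8 in SI. For every gene the quantity of interest was the log2 fold change on over off in COL less that in SI, and genes were sorted into shared, colon-only, small-intestine-only and opposite responses. All 24 libraries were fitted jointly, and the BRAF and p53 cultures, which carry only the Braf or only the Trp53 allele beside the same Cre transgene, gave 8 libraries each for the same difference in cells of other donors.

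Organoids are epithelial cultures grown in gel from intestinal crypts, and the Villin promoter restricts the Cre recombinase to such epithelium. BRAF is a kinase that passes signals from RAS to MEK and ERK, and the V600E form is active without RAS. ERK signalling switches on early transcription factors and, in negative feedback, the dual specificity phosphatases and Sprouty proteins that restrain it. p53 is a transcription factor activated by DNA damage and oncogenic stress, and R172H is a mutant with dominant-negative effects on the wild-type protein. In the small intestine enterocytes absorb lipid, sugar and peptides with the help of apolipoproteins and brush border hydrolases, whereas colonocytes absorb water and salt.

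The 8 libraries held 54699763 to 78175143 counts and each library of the series at least 44350747, so 3 counts equal 0.0384 to 0.0548 CPM here, where CPM is the count divided by the library total and multiplied by 1e+06. CPM below are scaled by TMM, a trimmed mean of ratios between libraries. Tissue labels were checked on marker levels. Car1 stood at 3476 to 9596 CPM in COL and was not counted in SI. Gata4 reached 98.0 to 107 CPM in SI against 0.293 to 2.67 in COL, and Fabp1 9515 to 15105 against 0.0852 to 0.282. Other markers did not separate the tissues in that way: Hoxb13 was at most at 0.159 CPM in COL, Aqp8 overlapped, and Lyz1, a Paneth cell gene, was higher in COL (704 to 1245 CPM) than in SI (52.7 to 97.9 CPM). Of 20 stromal, immune and endothelial markers 12 were tested, and none was called in any of the BRAFp53 comparisons. Their summed level was 6.45 to 7.52 CPM in COL off, 3.69 to 4.25 in COL on, 3.77 to 6.197 in SI off and 15.8 to 17.8 in SI on libraries, and its part in the results was not tested. The tissues also differed in sex-linked transcripts. Xist was at 126 to 166 CPM in the SI libraries and at most 0.0284 CPM in COL, whereas Ddx3y was at 47.4 to 64.8 CPM in COL and at most 0.0617 CPM in SI, although the methods name 1 donor mouse per genotype. Eif2s3y, also Y-linked, was at 5.72 to 10.2 CPM in COL BRAFp53, 61.4 to 73.9 CPM in COL p53 and at most 0.114 CPM in COL BRAF libraries, while Ddx3y was at 45.9 to 60.03 CPM in the last. Tissue, donor culture, sex, 4-HT dose, day and medium cannot be told apart in a comparison of COL with SI in the BRAFp53 cultures. The same holds in the p53 cultures and, except for sex, in the BRAF cultures, where SI libraries also held Ddx3y, at 32.8 to 40.3 CPM. The COL medium held Wnt3a and a GSK3 inhibitor. Each tissue has 1 BRAFp53 culture, so the error measures the spread between libraries of a culture and not between animals.

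Both alleles were first examined in their own transcripts. 37.1 and 30.0 CPM of Braf were found in COL off, 45.5 and 41.4 in COL on, 14.0 and 17.2 in SI off and 22.9 and 18.9 in SI on libraries. Its counts do not separate the V600E from the wild-type transcript, and the responses differed by -0.05 ± 0.25 on the log2 scale (SE, edgeR quasi-likelihood test, Benjamini-Hochberg adjusted p = 1.0). Trp53 rose in both tissues, from 162 and 140.1 to 248 and 332 CPM in COL and from 150.5 and 153 to 254 and 194 CPM in SI. The on libraries lay above the off libraries in both, and the difference of the rises was 0.38 ± 0.20 (SE, adjusted p = 0.33).

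Of 19673 genes tested, 693 (3.52%) responded differently in the tissues at an adjusted p under 0.05, 274 (1.39%) with the higher log2 fold change in COL and 419 (2.13%) with the higher one in SI. This split, 39.5% higher in COL, was not stable: it was 49.4% with RLE size factors, 54.2% with DESeq2, 55.2% with at least 10 counts in each library of a culture and 55.7% without the first COL off library. It was lower, at 34.3%, with the 8 libraries alone, 29% without the first COL on, 29.8% without the second SI on and 29.5% without the first SI off library, and 27.8% among differences of at least 1 in size. An unadjusted p under 0.05 was found for 3504 genes, and the median difference over all genes was -0.06. The COL response itself comprised 3466 genes (17.6%), 1954 up (9.93%) and 1512 down (7.69%), and the SI response 1888 genes (9.6%), 1306 up (6.64%) and 582 down (2.96%). Of the classes, 835 genes (4.24%) were shared, that is called in both tissues in the same direction with no call of the difference, and 602 of them rose. There were 351 colon-only genes (1.78%; 167 up, 184 down) and 193 small-intestine-only genes (0.981%; 135 up, 58 down), for which the response was called in 1 tissue only and the difference was called too. A further 46 genes (0.234% of those tested) were opposite, 17 up in COL and down in SI and 29 the other way, and 77 (0.391%) moved in the same direction to an unequal extent. The difference alone was called for 26 genes (0.132%). For 2157 genes (11%) called in COL alone and 737 (3.75%) called in SI alone the difference was not called, so these cannot be placed in a class, and 15251 genes (77.5%) had no call. The last gene called was Cd302 (adjusted p = 0.0498) and the first not called Cgnl1 (adjusted p = 0.0507).

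**Figure D1:**
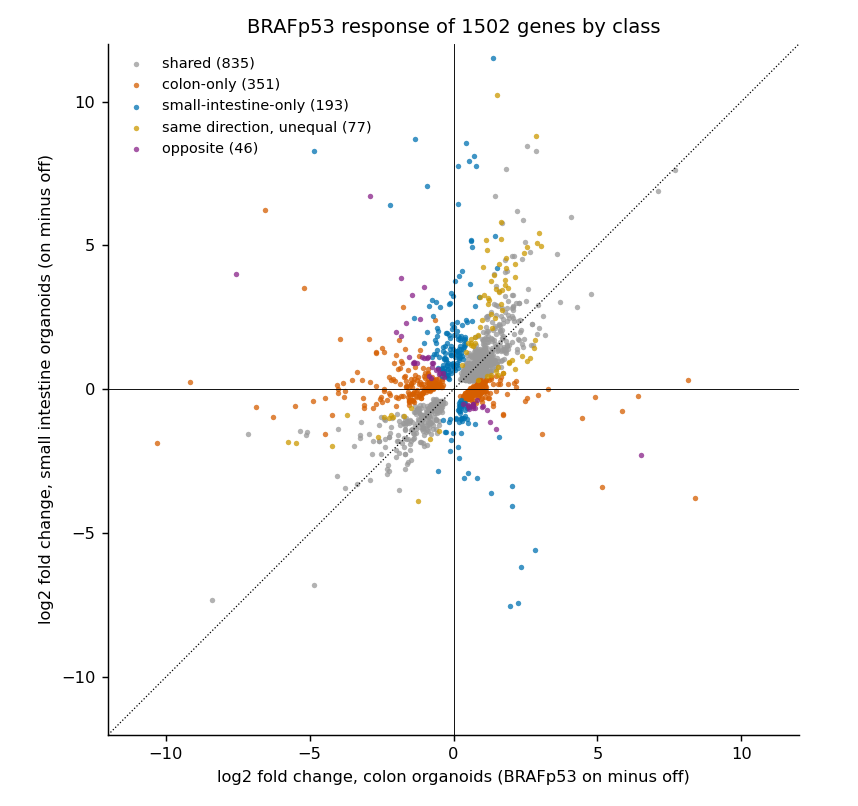
Log2 fold change on over off in COL (horizontal axis) against that in SI (vertical axis) for the genes of the 5 classes, 1 point per gene, coloured by class, with a dotted line where the responses are equal. The 835 shared genes lie along the line, the 351 colon-only and 193 small-intestine-only genes along the axes, and the 46 opposite genes in the upper left and lower right quadrants.

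The number of calls depended on single libraries. It fell to 235 without the second SI on library, 305 without the first SI off library, 404 without the first COL on library, 414 without the second COL off library and 432 without the second SI off library. Among those of the 693 genes that each alternative fit tested, 0 changed the direction of the difference. The fits used another scaling, filter or tool, the 8 libraries alone, a replicate block, or left out 1 of the 8 libraries. All of them reuse libraries in which the 693 genes were chosen for their difference, so a change of direction was unlikely from the start.

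Shared genes included several of the ERK feedback genes. Dusp6, the phosphatase that inactivates ERK, was at 34.9 and 33.7 CPM in COL off and 153 and 143 CPM in COL on libraries, and at 25.01 and 26.3 CPM in SI off and 92.1 and 105 CPM in SI on libraries. The on libraries lay above the off libraries in both tissues, with log2 fold changes of 2.11 and 1.94, and the 95% interval of their difference ran from -0.38 to 0.72. Plaur, the urokinase receptor, rose from 43.7 and 34.3 to 199 and 183 CPM in COL and from 4.06 and 3.60 to 23.1 and 38.2 CPM in SI. Here the SI on libraries overlapped the COL off libraries in level, and the log2 fold changes of 2.29 in COL and 3.00 in SI had a difference of -0.71 ± 0.38 (SE, adjusted p = 0.353). Tnfrsf23, a decoy receptor for TRAIL, had log2 fold changes of 2.94 and 2.94, with an interval of the difference from -0.61 to 0.60, and the retinoic acid-induced receptor Gprc5a of 2.59 and 3.50, with an interval, not adjusted for multiple tests, from -1.68 to -0.15. S100a14 and Rhof completed the 5 shared genes with the largest common rise.

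Among shared genes that fell, Fbp1, which encodes the gluconeogenic fructose bisphosphatase, went from 15.4 and 7.96 to 2.26 and 3.61 CPM in COL and from 383 and 352 to 112 and 57.4 CPM in SI. The off levels were far higher in SI, and the log2 fold changes were -2.001 in COL and -2.12 in SI, with an interval of the difference from -0.99 to 1.22. The guanine nucleotide exchange factor Vav3, the carboxylesterase Ces1d and the aldo-keto reductase Akr1c14 also fell in both tissues, with log2 fold changes of -2.83, -2.29 and -2.51 in COL and -2.26, -2.63 and -2.23 in SI. Reads of Ces1d may be shared with other carboxylesterase copies.

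**Figure D2:**
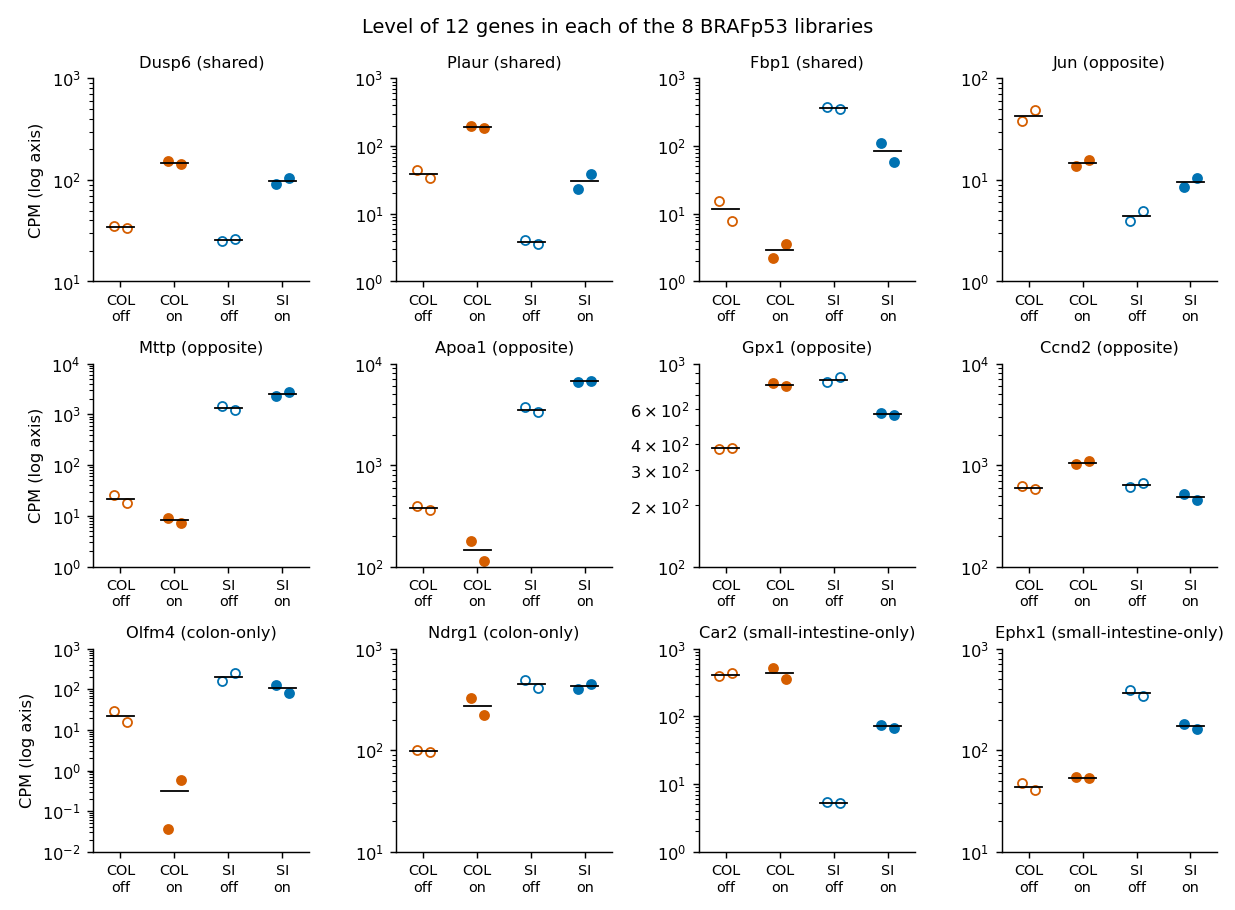
CPM (log axis) of 12 genes in each of the 8 BRAFp53 libraries, with open circles for off, filled circles for on, orange for COL, blue for SI and a line at the mean of 2 libraries. Dusp6 and Plaur rise and Fbp1 falls in both tissues; Jun, Mttp and Apoa1 fall in COL and rise in SI, and Gpx1 and Ccnd2 do the reverse; Olfm4 and Ndrg1 were called in COL only, although the Olfm4 libraries were lower on than off in SI too, and Car2 and Ephx1 in SI only.

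Opposite genes with a fall in COL were led by Jun, Mttp, Apoa1, Shisa2 and Abcg5. Jun (ENSMUSG00000052684, chr4:95049034-95052222, minus strand, GRCm38), a subunit of the AP-1 transcription factor, was at 37.7 and 48.4 CPM in COL off and 13.7 and 15.9 CPM in COL on libraries, against 3.93 and 4.90 CPM in SI off and 8.58 and 10.5 CPM in SI on libraries. Both COL on libraries were below both COL off libraries and both SI on libraries above both SI off libraries, and the gap between the tissues was narrower in the on than in the off state. The difference of the responses was -2.65 ± 0.34 (SE, adjusted p = 2.6e-04), and the call was kept whichever single library was left out. Jun overlaps the antisense gene Junos, and the use of strand in counting is not given in the sources used here, so reads of the pair cannot be told apart. The same holds for Mttp, Ndrg1, Ccnd2, Kdelr3, Treh, Rtkn and Braf, which also overlap genes on the other strand.

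Mttp, the transfer protein that loads lipid onto chylomicrons (ENSMUSG00000028158, chr3:138089854-138144968, minus strand), fell from 25.5 and 17.8 to 9.17 and 7.27 CPM in COL and rose from 1440 and 1218 to 2308 and 2744 CPM in SI. For Mttp the difference was -2.32 ± 0.32 (SE, adjusted p = 4.8e-04). Apoa1 (ENSMUSG00000032083, chr9:46228580-46230466, plus strand), an apolipoprotein of chylomicrons and HDL, fell from 399 and 358 to 178 and 113 CPM in COL and rose from 3693 and 3314 to 6641 and 6692 CPM in SI. For Apoa1 the difference was -2.30 ± 0.27 (SE, adjusted p = 1.1e-04). Both were already far higher in SI in the off state, so that the tissues moved further apart. Abcg5, one half-transporter of the sterol pump that returns cholesterol to the lumen, followed at lower COL levels of 5.61 and 4.32 CPM off and 3.07 and 0.957 CPM on, against 102 and 88.9 and 161 and 201 CPM in SI, and overlaps its partner Abcg8 on the other strand. Its difference was -2.20 ± 0.41 (SE, adjusted p = 0.006), ranged from -3.29 without the first to -1.61 without the second COL on library, and was not called with the 8 libraries alone (adjusted p = 0.0582). Shisa2, an antagonist of Wnt and FGF receptor maturation, differed by -2.24 ± 0.37 (SE, adjusted p = 0.0028). For Cubn, the cubilin receptor of vitamin B12 uptake, the SI off libraries were at or under 3 counts, so the rise to 0.473 and 0.442 CPM there was at least 7.84-fold, beside a fall from 22.97 and 18.5 to 7.06 and 4.63 CPM in COL.

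Opposite genes with a rise in COL were led by Paqr5, Gpx1, Rtkn, Mgmt and Sestd1. Gpx1 (ENSMUSG00000063856, chr9:108338903-108340343, plus strand), the glutathione peroxidase that reduces hydrogen peroxide, was at 381 and 384 CPM in COL off and 798 and 771 CPM in COL on libraries, and at 807 and 861 CPM in SI off and 569.5 and 558 CPM in SI on libraries. The order of the tissues was therefore exchanged by induction, with a difference of 1.60 ± 0.16 (SE, adjusted p = 2.0e-05). Paqr5, a membrane progestin receptor, rose from 18.4 and 20.7 to 57.9 and 35.4 CPM in COL and fell from 12.9 and 8.68 to 5.82 and 3.99 CPM in SI. For Paqr5 the difference was 2.40 ± 0.41 (SE, adjusted p = 0.0032). Ccnd2, the D-type cyclin, was at similar off levels in both tissues (623 and 578 CPM in COL, 607 and 665 CPM in SI), then at 1015 and 1091 CPM in COL on and 522 and 453 CPM in SI on libraries. This change of 1.19 ± 0.14 (SE, adjusted p = 1.6e-04) was the 1 call among 34 tested genes of DNA replication and mitosis, and like those of Gpx1 and Paqr5 it was kept whichever single library was left out. Mgmt, which removes alkyl groups from guanine in DNA, differed by 1.39 ± 0.27 (SE, adjusted p = 0.0081), and this call was lost without the second SI on library (adjusted p = 0.0658).

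Colon-only genes that rose were led by Pdlim7, Hgfac, Kctd11, Lrrc26 and Ndrg1. Ndrg1, a gene known to respond to hypoxia and differentiation, was at 100.5 and 95.6 CPM in COL off and 323 and 222 CPM in COL on libraries and at 487 and 406 and 405 and 452 CPM in SI off and on libraries. The COL libraries separated by state and the SI libraries overlapped. For Ndrg1 this was a difference of 1.53 ± 0.31 (SE, adjusted p = 0.0096). Lrrc26, a subunit of the BK potassium channel, rose from 38.1 and 41.9 to 100.1 and 90.3 CPM in COL, with 18.9 and 17.0 CPM in SI off and 14.9 and 14.1 CPM in SI on libraries and a difference of 1.56 ± 0.21 (SE, adjusted p = 3.1e-04). Hgfac, the protease that activates hepatocyte growth factor, differed by 1.85 ± 0.32 (SE, adjusted p = 0.0035) and Kctd11 by 1.72 ± 0.37 (SE, adjusted p = 0.014). The latter call was lost without the first COL on, the second SI on or the first SI off library (adjusted p = 0.0768, 0.0922 and 0.0659).

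Colon-only genes that fell were led by Olfm4, Slc6a4, Apoc3, Treh and Cps1. Slc6a4, the serotonin transporter, was at 4.03 and 3.01 CPM in COL off, 0.172 and 0.139 CPM in COL on, 94.9 and 77.0 CPM in SI off and 72.2 and 67.9 CPM in SI on libraries. For Slc6a4 the difference was -4.18 ± 0.39 (SE, adjusted p = 1.7e-05). Apoc3, an inhibitor of lipoprotein lipase, went from 6.10 and 6.08 to 0.478 and 0.355 CPM in COL, with 365 and 307 and 414 and 373 CPM in SI off and on libraries. For Apoc3 the difference was -4.07 ± 0.35 (SE, adjusted p = 1.0e-05). The COL off and on libraries were apart for both genes, and the SI libraries stood far above all of them. Olfm4, a marker of intestinal stem cells, fell from 29.0 and 15.5 to 0.0368 and 0.587 CPM in COL, and SI libraries held 157 and 256 CPM off and 129 and 80.9 CPM on. Both SI on libraries were below both SI off libraries, without a call (-0.97, adjusted p = 0.443). Its difference was -5.30 ± 1.19 (SE, adjusted p = 0.0178), and the call was lost without the first COL on library (-4.26, adjusted p = 0.102), and without the first SI off library (adjusted p = 0.0737). Without the second COL on library it was -8.18, a fitted estimate that rests on 3 counts in the COL on library left. Treh, the brush border trehalase, differed by -3.89 ± 0.73 (SE, adjusted p = 0.0061), with -3.07 without the second COL on library and -7.69 without the first, the latter a fitted estimate that rests on 1 count in the COL on library left. The call of Cps1, the entry enzyme of the urea cycle, was lost when any 1 of 6 libraries was left out.

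Small-intestine-only genes that rose included genes whose SI level moved toward that of colon. Car2, the cytosolic carbonic anhydrase of colonocytes, was at 5.43 and 5.23 CPM in SI off and 75.2 and 68.4 CPM in SI on libraries, while COL libraries held 398 and 431 CPM off and 512 and 355 CPM on. The SI on libraries remained below every COL library. For Car2 this was a difference of -3.69 ± 0.33 (SE, adjusted p = 1.0e-05). Tmigd1, an adhesion protein of the brush border, rose in SI from 0.137 and 0.155 to 6.21 and 4.45 CPM, again far below the 214 and 221 CPM of COL off and 409 and 250 CPM of COL on libraries. For Tmigd1 the difference was -4.57 ± 0.62 (SE, adjusted p = 4.3e-04), not called with limma-voom (adjusted p = 0.0556). Apoa4, an apolipoprotein of chylomicrons, is a small intestine gene and rose there from 844 and 753 to 2563 and 2659 CPM, against at most 2.13 CPM in COL. Its difference of -2.36 ± 0.52 (SE, adjusted p = 0.0162) was not called without the first COL off (-1.09, adjusted p = 0.261), the second COL on (adjusted p = 0.0708) or the second SI on library (adjusted p = 0.0521). Kdelr3, a retrieval receptor for proteins of the endoplasmic reticulum, differed by -2.32 ± 0.45 (SE, adjusted p = 0.0072), not called with the 8 libraries alone (adjusted p = 0.0521). The calls of Olfm4 and Apoa4 were also lost with limma-voom (adjusted p = 0.161 and 0.144), and that of Apoa4 with the 8 libraries alone (adjusted p = 0.0857).

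Small-intestine-only genes that fell were Gas6, Prss23, Rnase1, Vwa5a and Ephx1 by the size of the difference, of which Gas6, Rnase1 and Vwa5a lost the call without the second SI on library (adjusted p = 0.0849, 0.085 and 0.105) and without the first SI off library (adjusted p = 0.0618, 0.055 and 0.0901). Ephx1, the microsomal epoxide hydrolase, went from 392 and 342 to 183 and 163 CPM in SI and was at 47.5 and 40.3 CPM in COL off and 53.9 and 53.1 CPM in COL on libraries. The SI on libraries were far below the SI off libraries and the COL libraries close together. For Ephx1 this was a difference of 1.37 ± 0.17 (SE, adjusted p = 1.8e-04). Prss23, a secreted serine protease, fell in SI from 7.23 and 8.31 to 2.53 and 1.39 CPM while COL off and on libraries overlapped at 112 and 94.4 and 136 and 93.7 CPM. For Prss23 the difference was 2.16 ± 0.33 (SE, adjusted p = 0.0013). It overlaps the antisense gene Prss23os.

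The 77 genes that moved in the same direction to an unequal extent were mostly up, 63 genes against 14. The size of this class fell to 33 genes without the second SI on library. It was 43 without the second and 46 without the first SI off library. It rose to 164 with DESeq2 and to 243 without the filter on low counts. In 47 of the 63 the log2 rise was larger in SI. Ada, the adenosine deaminase, was at 112 and 33.0 CPM in COL off, 189 and 136 CPM in COL on, 23.2 and 25.4 CPM in SI off and 722 and 679 CPM in SI on libraries. The COL off libraries lay far apart, the SI on libraries stood above all others. For Ada this was a difference of -3.69 ± 0.56 (SE, adjusted p = 0.0012). Ildr1, a receptor at tricellular junctions, rose from 83.8 and 82.9 to 184 and 156 CPM in COL and from 0.234 and 0.407 to 6.75 and 5.63 CPM in SI, a difference of -3.23 ± 0.42 (SE, adjusted p = 3.0e-04) although the SI on libraries stayed far below every COL library. Slc7a11, the cystine transporter, differed by -2.77 ± 0.48 (SE, adjusted p = 0.0036) and ended at similar levels, 58.6 and 55.04 CPM in COL on and 55.7 and 99.4 CPM in SI on libraries. Ecm1, a matrix protein, differed by -3.60 ± 0.62 (SE, adjusted p = 0.0032).

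A larger log2 rise in SI was thus not always a larger gain in level. Of the 47 genes, 40 had the lower off level in SI, 29 still had the lower on level in SI, and 27 gained more CPM in COL. The off libraries of the BRAF and p53 cultures entered no contrast of the classification but shared its filter, scaling and estimate of spread. There 42 of the 47 (89.4%) were called higher in COL, where 25.7% of all genes tested were. In either direction 50.3% of all genes tested were called. Of the 602 shared genes that rose, 326 were called higher in COL there and 131 higher in SI. Genes that rose in both tissues were thus more often higher in COL in general. Of the unequal genes that fell, Prlr, the prolactin receptor, went from 12.1 and 7.36 to 0 and 0.401 CPM in COL and from 134 and 129 to 40.5 and 34.4 CPM in SI. For Prlr the difference was -3.92 ± 0.77 (SE, adjusted p = 0.008), an estimate that rests on 1 COL on library with 0 counts and 1 with 26. It was -2.77 without the library with 0 counts, and no value is given without the other.

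**Figure D3:**
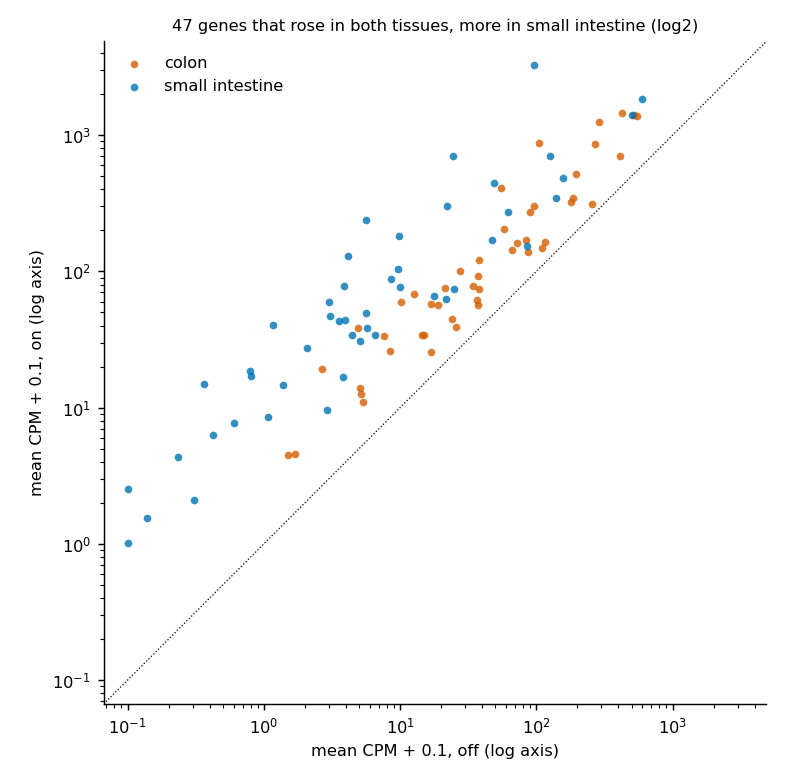
Mean CPM plus 0.1 in off libraries (horizontal log axis) against that in on libraries (vertical log axis) of the 47 genes that rose in both tissues with the larger log2 rise in SI, 1 orange point for COL and 1 blue point for SI per gene, dotted line for no change. Most blue points start further left than the orange ones, as the off level was lower in SI for 40 of the genes.

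Promoter sequences were compared because genes of a class move together, and the AP-1 subunit Jun was itself opposite. Sequences of 300 bases, from 250 before to 50 after the start site, came from RefSeq (GRCm38.p6), covered 12591 of the genes tested and 37 of the 50 genes named by class, and the first listed start was used. Motifs were searched on both strands as the letters TGANTCA for AP-1, CCGGAAGN for ETS factors, TTTATNG for CDX, TGACGTCA for CRE and TATAAA for the TATA box, the CDX and TATA letters being able to overlap. The AP-1 letters were in 5.91% of promoters of genes tested, in 10.3% of 467 shared genes that rose and 3.93% of 178 that fell, in 7.46% of 134 colon-only genes that rose and 4.2% of 119 that fell, and in 10.4% of 96 small-intestine-only genes that rose and 9.3% of 43 that fell. They were in 22.2% of 45 unequal genes that rose, 1 of 10 that fell, 1 of 13 opposite genes that rose in COL and 0 of 25 that fell in COL. The other letters were in 15.8% (ETS), 7.83% (CDX), 2.91% (CRE) and 8.43% (TATA) of promoters of genes tested. The ETS letters were in 2.52% of colon-only genes that fell and 6.67% of unequal genes that rose. They were in 6.25% of small-intestine-only genes that rose and 6.98% of those that fell. Shared and colon-only genes that rose held them in 16.3% and 17.9%. The unequal genes that rose also held the TATA letters in 26.7% and the CDX letters in 17.8%, and the opposite genes that fell in COL held the TATA letters in 24.0%. These shares are descriptions without a test. Of the 37 promoters, 4 held the AP-1 letters and are printed to show a shared, a colon-only, a small-intestine-only and an unequal gene that rose, with all motif matches in capitals.
Plaur (shared; chr7:24462233-24462532, plus strand; AP-1 from base -69 relative to the start site): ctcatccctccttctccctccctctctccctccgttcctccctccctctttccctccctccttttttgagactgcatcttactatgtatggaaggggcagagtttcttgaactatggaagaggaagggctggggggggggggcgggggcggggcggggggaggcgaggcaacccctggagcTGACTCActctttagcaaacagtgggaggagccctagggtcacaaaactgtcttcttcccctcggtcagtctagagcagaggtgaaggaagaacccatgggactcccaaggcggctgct
Kctd11 (colon-only; chr11:69880936-69881235, minus strand; AP-1 from base -167): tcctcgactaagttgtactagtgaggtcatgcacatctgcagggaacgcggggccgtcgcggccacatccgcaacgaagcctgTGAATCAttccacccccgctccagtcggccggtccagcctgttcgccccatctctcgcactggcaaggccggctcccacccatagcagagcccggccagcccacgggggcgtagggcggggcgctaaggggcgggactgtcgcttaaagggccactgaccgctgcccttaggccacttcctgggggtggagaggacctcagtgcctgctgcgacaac
Tmigd1 (small-intestine-only; chr11:76890870-76891169, plus strand; AP-1 from base -43): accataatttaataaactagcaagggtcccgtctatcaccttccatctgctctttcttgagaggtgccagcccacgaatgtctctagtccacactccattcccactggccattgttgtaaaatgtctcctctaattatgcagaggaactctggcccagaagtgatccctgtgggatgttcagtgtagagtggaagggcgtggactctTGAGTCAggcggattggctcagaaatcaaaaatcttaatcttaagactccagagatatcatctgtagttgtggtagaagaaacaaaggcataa
Ecm1 (unequal; chr3:95739520-95739819, minus strand; AP-1 from base -64, TATA from base -27): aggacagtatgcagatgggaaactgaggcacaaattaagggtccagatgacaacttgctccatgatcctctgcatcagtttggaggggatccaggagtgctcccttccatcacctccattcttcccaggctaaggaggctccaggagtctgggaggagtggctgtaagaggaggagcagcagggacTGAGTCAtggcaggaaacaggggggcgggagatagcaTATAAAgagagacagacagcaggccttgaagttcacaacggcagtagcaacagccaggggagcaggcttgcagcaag

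Gene lists of pathways and cell types were then described by the number of members called, beside the 3.52% of all genes with a called difference. Over all genes 9.93% rose and 7.69% fell in COL, and 6.64% rose and 2.96% fell in SI. Of 30 ERK feedback and immediate early genes 19 rose in COL and 21 in SI, 15 were shared, and the median log2 fold changes were 1.11 in COL and 0.99 in SI, against -0.04 and 0.00 over all genes tested. Only Ier3, Egr1 and Areg of the list had a called difference. Ier3, an early response gene that restrains apoptosis, rose from 79.6 and 83.6 to 388 and 324 CPM in COL and from 32.2 and 25.6 to 46.8 and 48.0 CPM in SI. For Ier3 the difference was 1.41 ± 0.18 (SE, adjusted p = 2.8e-04). Egr1, a zinc finger factor, was called down in SI alone with a difference of 0.86 ± 0.20 (SE, adjusted p = 0.021), and Areg, an EGF receptor ligand, differed by -1.09 ± 0.27 (SE, adjusted p = 0.0299). The calls of Egr1 and Areg were each lost with the 8 libraries alone (adjusted p = 0.0603 and 0.0781) and without several single libraries, at adjusted p values of up to 0.0928 and 0.146.

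Of 36 p53 targets 16 rose and 2 fell in COL, and 7 rose and 3 fell in SI. The difference was called for 2 members (5.56%, against 3.52% of all genes). Bax, an effector of apoptosis, rose from 122 and 133 to 235 and 243 CPM in COL, with 134 and 144 CPM in SI off and 159.7 and 157 CPM in SI on libraries. For Bax the difference was 0.72 ± 0.13 (SE, adjusted p = 0.0043). The other was Ephx1, described above, which fell in SI. The median difference of the list was 0.26.

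Enterocyte genes gave the most called differences of any list, 17 of 38, and in 16 of them COL had the lower log2 fold change. In COL 15 members fell and 5 rose, and in SI 13 rose and 2 fell, with medians of -0.71 and 0.20. Apoc3, Cubn and Apoa1 were given above, and Mgam, the maltase-glucoamylase, fell from 326 and 348 to 189 and 177 CPM in COL with 745 and 712 and 937 and 948 CPM in SI off and on libraries. For Mgam the difference was -1.25 ± 0.17 (SE, adjusted p = 4.7e-04). The exception was Fabp2, a fatty acid binding protein, which rose in COL and had a difference of 1.21 the other way. The median difference of the list was -0.94, beside -0.83 in the p53 cultures, which lack BRAFV600E. There 4 members (10.5%, against 0.117% of all genes) were called, all lower in COL. In the BRAF cultures the median was -2.01 and 30 members (78.9%, against 10.7% of all genes) were called. In bulk RNA, fewer cells of a type and less RNA per cell cannot be told apart, here as in the lists that follow.

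Of 25 goblet cell and mucin genes 12 rose and 1 fell in COL, and 19 rose in SI. The medians were 0.43 and 1.02, and the 8 called differences were all higher in SI. Muc3, a membrane mucin, rose from 176 and 194 to 426 and 271 CPM in COL and from 46.0 and 51.3 to 367 and 523 CPM in SI. For Muc3 the difference was -2.28 ± 0.37 (SE, adjusted p = 0.002). Zg16, a lectin of the mucus layer, rose from 17.1 and 25.4 to 100.5 and 49.2 CPM in COL and from 10.5 and 8.79 to 151 and 210.4 CPM in SI. For Zg16 the difference was -2.41 ± 0.45 (SE, adjusted p = 0.0057). The SI on libraries were the highest for Zg16, whereas for Muc3 they overlapped the COL on libraries. Of the colonocyte list 6 of 27 members differed, 5 of them with the higher log2 fold change in SI. Guca2b, the uroguanylin precursor, fell from 45.7 and 51.2 to 25.9 and 22.6 CPM in COL and was at 504 and 489 and 638 and 677 CPM in SI off and on libraries. For Guca2b the difference was -1.41 ± 0.18 (SE, adjusted p = 3.0e-04).

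Of 32 fetal and regenerative epithelial genes 20 rose in COL and 19 in SI, with medians of 1.43 and 2.19. Of these 8 differed, 7 of them with the larger log2 rise in SI. Mean on levels of Ly6a, Msln and Sprr1a still were 7.58, 16.9 and 129 CPM in SI against 1255, 204 and 872 CPM in COL. Anxa10 ended higher in SI (240 against 38.1 CPM). The summed level of the list, much of it Krt19, rose from 5715 and 5874 to 20245 and 16591 CPM in COL. In SI it rose from 4486 and 4164 to 6874 and 7203 CPM. Anxa3, a calcium-dependent membrane binding annexin, rose from 196 and 193 to 568 and 462 CPM in COL and from 3.15 and 2.83 to 43.5 and 49.8 CPM in SI. For Anxa3 the difference was -2.56 ± 0.29 (SE, adjusted p = 7.3e-05). Krt19, a keratin of simple epithelia, was the exception, with a rise from 3003 and 2980 to 10902 and 8697 CPM in COL and from 4207 and 3901 to 5907 and 6247 CPM in SI and a difference of 1.13 ± 0.19 (SE, adjusted p = 0.0031). Of 22 gastric and serrated lesion genes 8 rose in COL and 7 in SI, and the 7 called differences were all larger in SI. Anxa10, Msln and Vsig1 are called members of both the fetal and the gastric list. Likewise Areg is in the ERK and the fetal list and Mmp7 in the Paneth cell and the invasion list. Ctse, the protease cathepsin E, had no count in the SI off libraries and 3.37 and 1.496 CPM in SI on libraries, a rise of at least 41.7-fold against the 3-count limit, beside 2.34 and 0.843 CPM in COL off and 4.67 and 4.31 CPM in COL on libraries. Vsig1, an adhesion molecule of gastric epithelium, likewise had no count in SI off libraries and 0.988 and 0.85 CPM in SI on libraries, at least 15.7-fold higher, against 2.31 and 2.87 CPM in COL off and 16.4 and 21.6 CPM in COL on libraries, a call lost without either SI off library (adjusted p = 0.0694 and 0.0592). Fitted log2 values of such genes depend on the prior count and are no bound. Capn9, a calpain of the digestive tract, rose in SI alone, from 0.449 and 0.31 to 2.65 and 3.47 CPM, with 5.03 and 5.66 and 4.72 and 5.16 CPM in COL off and on libraries.

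Of 28 genes of stem cells and Wnt targets 14 fell in COL, and 3 fell and 1 rose in SI. The difference was called for 4, lower in COL for Smoc2, Olfm4 and Rgmb and higher for Prom1. The calls of Rgmb and Prom1 were lost when any 1 of 7 and any 1 of 4 libraries was left out. Smoc2, a matricellular stem cell marker, fell from 134 and 104 to 20.8 and 31.1 CPM in COL and was at 99.3 and 103 and 77.9 and 96.5 CPM in SI off and on libraries. For Smoc2 the difference was -1.98 ± 0.36 (SE, adjusted p = 0.0048). Lgr5 and Axin2 are counted among the members called in COL alone whose difference was not called. Of 22 Paneth cell genes 5 fell in COL and 1 in SI, and 6 rose in SI and 4 in COL. The 4 called differences were all lower in COL, among them the defensin Defa17 (-2.78 ± 0.58 (SE, adjusted p = 0.011); not called without the first SI off library, adjusted p = 0.0552), which belongs to a family of near-identical copies whose counts are uncertain. The calls of the other 3 (Defa3, Defa24 and Mmp7) were each lost when any 1 of 6 libraries was left out, at adjusted p values of up to 0.0959, 0.124 and 0.147.

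Of 21 glycolysis genes 15 rose in COL and 5 in SI, with medians of 0.80 and 0.10, and 20 of the 21 differences were above 0. The 4 that were called were Eno1, Pkm, Aldoa and Pfkfb3. Eno1, the enolase, rose from 1904 and 1682 to 3635 and 3409 CPM in COL, toward the 4582 and 3747 CPM of SI off and 4665 and 3931 CPM of SI on libraries. For Eno1 the difference was 0.93 ± 0.16 (SE, adjusted p = 0.0041). Pkm, the pyruvate kinase, differed by 0.85 ± 0.17 (SE, adjusted p = 0.0101), and this call was lost without the second SI on or the first SI off library (adjusted p = 0.0709 and 0.0668). Aldoa lost it without these and others, up to an adjusted p of 0.078, and Pfkfb3 without any 1 of 5 libraries, up to 0.103. Of 29 invasion, matrix and protease genes 19 rose in COL and 14 in SI, 12 being shared, and Nid1, a basement membrane protein, rose more in SI with a difference of -2.21 ± 0.40 (SE, adjusted p = 0.005). No difference was called among 24 cholesterol synthesis, 33 interferon and antigen presentation or 20 tuft cell genes, 1 (Sst) among 28 enteroendocrine genes and 2 (Gata6 and Osr2) among 25 regional identity genes. These last 3 calls were lost when any 1 of 7, 5 and 6 libraries was left out, at adjusted p values of up to 0.612, 0.0878 and 0.178.

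**Figure D4:**
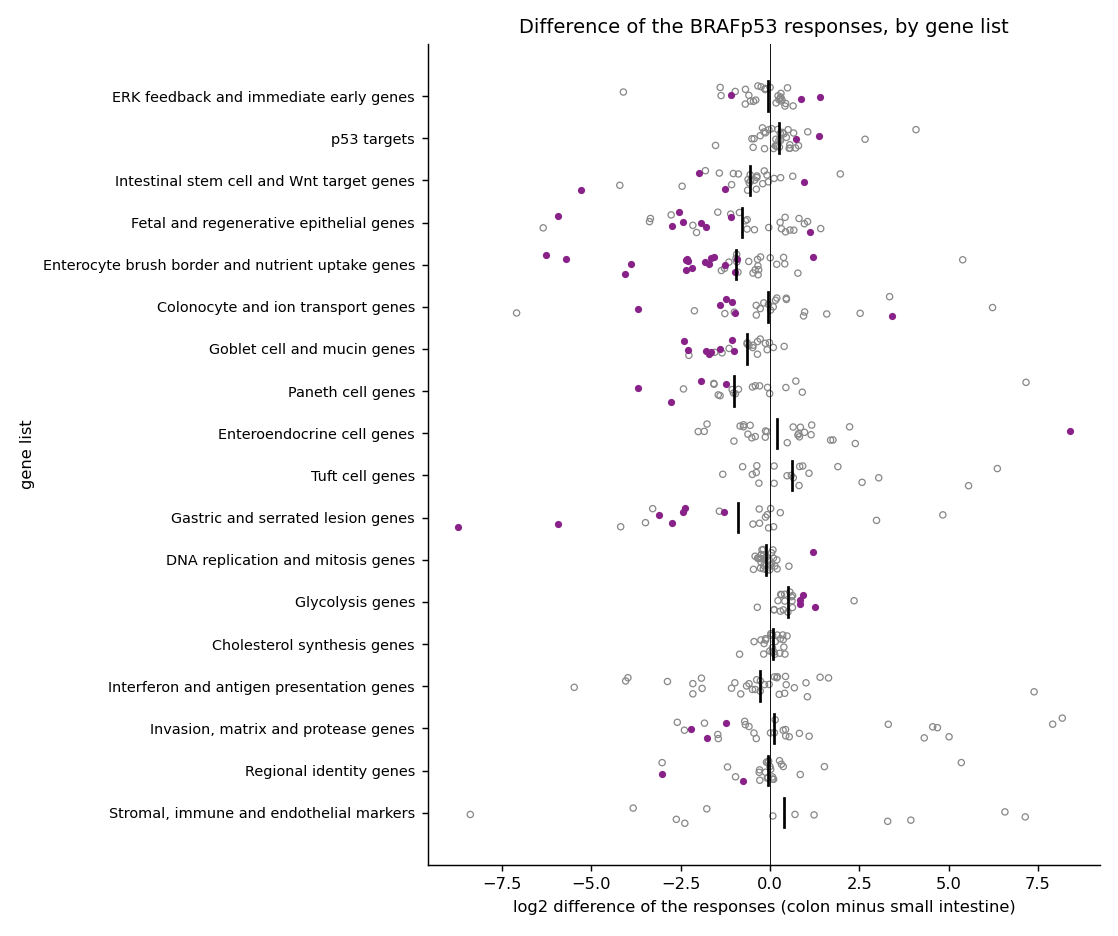
Log2 difference of the responses (COL minus SI) for the tested members of 18 gene lists, 1 point per gene, filled purple where the difference was called and open where it was not, with a black line at the median of each list. Called members lie mostly to the left of 0 for enterocyte, goblet, fetal and gastric genes and to the right for the 4 glycolysis genes.

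The same difference was then read in cultures that share no library with the BRAFp53 genotype, though they share its fit. In the BRAF cultures 2108 genes (10.7%) differed between COL and SI, 652 (3.31%) higher in COL and 1456 (7.4%) lower. Of the 693 genes, 449 (64.8%) had the same sign there, against 47.6% of all genes tested, and 211 (30.4%) were called with the same sign, against 5.91% of all genes tested, while 44 (6.35%) were called with the other sign, against 4.81% of all genes tested. Such calls were 28 (10.2%) of the 274 genes with the higher log2 fold change in COL and 16 (3.82%) of the 419 with the higher one in SI. The 255 genes called in both comparisons are 36.8% of the 693 and 12.1% of the 2108. Of the 419 genes with the higher log2 fold change in SI 307 (73.3%) had the same sign, and of the 274 with the higher one in COL 142 (51.8%). The libraries labelled COL BRAF held Gata4 at 32.1 to 49.4 CPM, above the other COL cultures. They also held more Fabp1 than those, at 90.4 and 84.3 CPM in off and 6.78 and 7.49 CPM in on libraries. The part of this fall in the BRAF values of small intestine genes, such as Mttp, Apoa1 and Apoc3, was not tested. In addition, 1 SI BRAF on library held Xist at 17.1 CPM beside Y-linked transcripts. Without this library 729 genes instead of 693 and 1833 instead of 2108 were called, and no such comparison can be made without the COL BRAF libraries.

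Among the named genes Mttp (-2.66), Apoa1 (-2.65), Apoc3 (-3.50), Slc6a4 (-3.17), Car2 (-2.82), Tmigd1 (-4.43), Anxa3 (-3.73), Ada (-3.18), Paqr5 (1.85) and Ccnd2 (0.95) also had a called log2 difference of the same sign in the BRAF cultures. Jun (-0.97, adjusted p = 0.0719) and Gpx1 (0.39, adjusted p = 0.128) were not called there. Called members of some lists lay mostly on the same side in the BRAF cultures. Of 38 enterocyte genes 1 was higher and 29 lower in COL there (1 and 16 in BRAFp53). The numbers were 0 and 6 of 27 colonocyte genes (1 and 5) and 0 and 4 of 22 gastric genes (0 and 7). Of 32 fetal genes 1 was higher and 4 lower (1 and 7). Called members of other lists lay mostly on the other side in the BRAF cultures. Of 21 glycolysis genes 0 were higher and 7 lower in COL there (4 and 0 in BRAFp53), of 22 Paneth cell genes 7 were higher and 1 lower (0 and 4), and of 28 stem cell and Wnt target genes 6 were higher and 0 lower (1 and 3). Of 25 goblet cell genes 3 were higher and 1 lower (0 and 8), and of 29 invasion genes 5 were higher and 3 lower (0 and 3). In the p53 cultures 23 genes (0.117%) differed by the edgeR test, 2 higher (0.0102%) and 21 lower (0.107%) in COL, 1532 did so at an unadjusted p under 0.05 and DESeq2 called 155. Of the 693 genes 420 (60.6%) had the same sign there, against 50.3% of all genes tested, and 9 were called. Apoa1 (-2.08, adjusted p = 0.0024) and Apoc3 (-2.71, adjusted p = 0.0024) were among them with the sign they had in the BRAFp53 cultures.

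**Figure D5:**
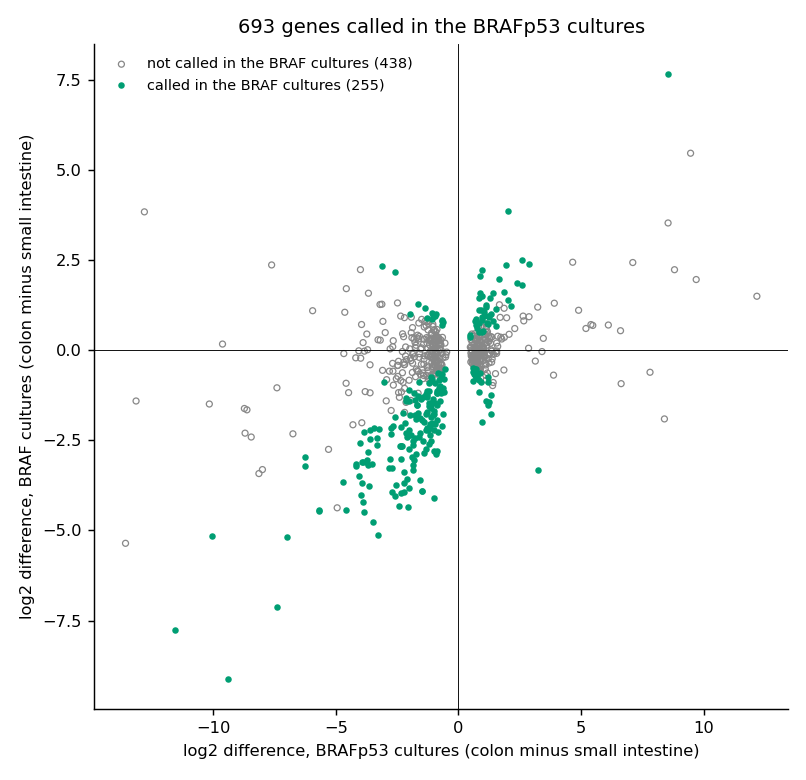
Log2 difference COL minus SI of the responses in the BRAFp53 cultures (horizontal axis) and in the BRAF cultures (vertical axis) for the 693 genes called in the former, filled green for the 255 also called in the BRAF cultures and open for the 438 not called there. The filled points cluster in the lower left quadrant, which holds genes with the higher log2 fold change in SI in both genotypes.

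The tissue difference of the BRAFp53 response itself differed from that of the BRAF response for 1353 genes (6.88%), 884 (4.49%) with the higher and 469 (2.38%) with the lower value in BRAFp53, and from that of the p53 response for 103 genes (0.524%), 41 higher (0.208%) and 62 lower (0.315%). The BRAFp53 difference enters both comparisons, so genes chosen for it are not counted in them. Each genotype came from another donor, so genotype and donor culture cannot be told apart in these values.

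The levels of the tissues were compared within each state as well. Between COL and SI 7867 genes (40%) were called in the BRAFp53 off libraries and 6907 (35.1%) in the on libraries.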

How the data were processed

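RNA-Seq libraries of organoids were made by the authors, who trimmed reads with Trimmomatic 0.36 and aligned them with STAR 2.5.2b, per the submitters' processing notes, which list mm9 and mm10 as builds, while the methods of the study give mm10. The deposited values are raw counts per gene, not normalized, with a column for each replicate. Neither the release of the annotation nor the use of strand is given in the sources used here. Of 45706 gene identifiers 45143 were matched to GENCODE M21, and 563 stayed unnamed but were kept in the fit.

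Counts of the 24 libraries were scaled by TMM, filtered by filterByExpr and fitted with a mean for each of 12 groups by tissue, genotype and state (glmQLFit and glmQLFTest, edgeR 4.0.16, R 4.3.3). Contrasts gave each response and their difference, with Benjamini-Hochberg adjustment over 19673 genes and a threshold of 0.05. The SE was the absolute log2 value divided by the square root of F. Libraries of a group correlated at 0.9657 to 0.982 and differed by more than sampling noise. The procedure was also run on simulated data, whose outcome is not given here. Total counts were 44350747 to 78175143 per library, and 3 counts were taken as the detection limit, covering counting error only.

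Alternatives were RLE factors, TMM within each tissue, no filter, at least 10 counts in each library of a culture, DESeq2 1.42.0, limma-voom (limma 3.58.1), a minimum size of 1 for log2 fold changes, the 8 libraries alone, a replicate block and leaving out each of the 8 libraries. The fit without 1 SI BRAF on library, which held Xist beside Y-linked transcripts, was added after its values were seen. Samples were grouped by title, and replicate numbers did not pair libraries (correlation of deviations -0.0619 to 0.104). Members and gene lists were chosen with earlier results of these data known. Named genes were, per class and direction, up to 5 with the largest difference (for shared genes, the largest smaller fold change), a mean log2 CPM of at least 3, and on libraries on 1 side of off libraries in each called tissue, and per list up to 4 with the smallest p. For the BRAFp53 less BRAF difference up to 4 genes per direction were named by its size. Braf, Trp53 and the tissue and sex markers were named as checks of the labels. Dusp6, Fabp2, Lgr5, Axin2, Cd302 and Cgnl1 were named outside these rules after their values were seen.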

Additional observations from a re-analysis of the deposited data

Results flagged for a closer look

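Differences between groups were found by the edgeR test of the difference itself for 693 genes between COL and SI in the BRAFp53 response, 2108 in the BRAF response, 23 in the p53 response, 1353 for the BRAFp53 less the BRAF difference and 103 for the BRAFp53 less the p53 difference. Opposite responses of the tissues were called for Paqr5 (2.40), Gpx1 (1.60), Rtkn (1.60), Mgmt (1.39) and Sestd1 (1.34), higher in COL on the log2 scale, and for Jun (-2.65), Mttp (-2.32), Apoa1 (-2.30), Shisa2 (-2.24) and Abcg5 (-2.20), lower in COL. The tissue difference of the BRAFp53 cultures exceeded that of the BRAF cultures for Hoxa7 (9.36), Fabp1 (4.69), Gnpda1 (3.34) and Anpep (3.10) and was below it for Rn7sk (-3.51), Defa30 (-3.21), Atg9b (-3.18) and Marcksl1 (-3.00). The libraries labelled COL BRAF held Fabp1 and Gata4 above the other COL cultures, and the part of this in the values of Fabp1 was not tested. Outside the comparisons, the first SI BRAF on library held Xist at 17.1 CPM, while the other SI BRAF libraries held at most 0.471 CPM.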

How the results depend on the processing

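Of 693 genes with a called tissue difference, 633 were also called with RLE size factors (709 calls, 350 higher in COL against 274), 655 with TMM within each tissue (723 calls, 342 higher in COL), 684 with DESeq2 and 589 with limma-voom. Among those that each fit tested 0 changed sign, all fits being of the same libraries. Counts moved by more than 1.5 times under some settings. Without the filter on low counts 1548 genes differed, with 107 opposite, 673 colon-only, 408 small-intestine-only and 243 unequal genes, and 488 (p53) and 715 (BRAFp53 less p53) in the other contrasts. DESeq2 called 1554, with 89, 799, 390 and 164 in these classes, 155 for p53, 2357 for BRAFp53 less BRAF and 486 for BRAFp53 less p53. The 8 libraries alone gave 435, with 194 colon-only and 123 small-intestine-only genes. A minimum size of 1 for log2 fold changes left 435 differences, 1296 COL, 872 SI and 1139 BRAF calls, and 15 opposite, 168 colon-only, 283 shared and 41 unequal genes. The cause was not tested.

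Leaving out 1 of the 8 libraries, where a lone library is assumed to vary like the other groups and up to 21392 genes were tested, gave 235 to 723 differences, 1760 to 3318 COL and 843 to 1899 SI calls, 12 to 44 opposite, 132 to 398 colon-only, 55 to 176 small-intestine-only, 466 to 717 shared and 33 to 63 unequal genes, 1963 to 2142 for BRAF, 17 to 41 for p53, 654 to 1669 for BRAFp53 less BRAF and 29 to 138 for BRAFp53 less p53. The lowest of the first came without the second SI on library. With a replicate block 545 genes differed, 476 of them among the 693, and the numbers do not mark a pairing. Of 77 named genes called, 51 to 67 kept the call without 1 library and 64 to 77 under the other settings. Depth limits genes near 3 counts. A fold against a group with every library at or under 3 counts is given as a bound, whereas for Prlr, Olfm4 and Treh, with 1 such COL on library, the fitted values are estimates and no bounds.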

Other observations

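Marcksl1, which encodes an actin-binding protein, was opposite in the BRAFp53 cultures, falling from 33.8 and 42.4 to 19.0 and 21.2 CPM in COL and rising from 5.88 and 6.93 to 11.7 and 15.3 CPM in SI, while its difference in the BRAF cultures had the other sign (1.01, adjusted p = 0.0303). Of 20 tuft cell genes 3 fell in COL and 3 in SI, where 7.69% and 2.96% of all genes did, with medians of -0.59 and -1.08. Of 24 cholesterol synthesis genes 10 rose in COL and 5 in SI, where 9.93% and 6.64% of all genes did. In the BRAF cultures 16 of these 24 had a called difference, all lower in COL, against 7.4% of all genes.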
